A study of Mus musculus with 38 samples.

Results

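The sites described here are 619 regions at which SATB1 was found by urea ChIP-seq in thymocytes, brain and skin although the DNA is not in the map of base-unpairing regions (BURs). They are peaks of 1 thymocyte list, replicate 2 by its label, on chromosomes 1 to 19 and X. Each shares no bp with a peak of the BUR reference map and at least 1 bp with a peak in each of the other 5 urea SATB1 lists, which are the other thymocyte list, 2 brain lists and 2 skin lists. Of the 38765 peaks of the starting list on these chromosomes, 8675 (22.4%) had no BUR, and the 619 sites are 7.14% of those and 1.60% of the list. A further 6650 peaks of the list were common to all tissues and overlapped a BUR, so that 8.52% of the common peaks lacked one. The sites were chosen by the presence of peaks in these lists, and presence in the 6 lists and absence from the BUR map are therefore no finding.

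SATB1 is a nuclear protein that binds double-stranded DNA and folds chromatin. It is best known in thymocytes, where it is needed for normal T cell development, and it is also made in neurons and in the epidermis. BURs are stretches of DNA whose strands separate easily under strain. They typically lie in sequence where one strand lacks G over a stretch of bases, the so-called ATC context, and they are the sites that SATB1 is known to prefer on naked DNA. In urea ChIP-seq, crosslinked chromatin is purified under denaturing conditions before the antibody is added, so that proteins not crosslinked to DNA are stripped off. Standard ChIP-seq works on sonicated whole chromatin. The sites described here are the exception in the urea map, having a peak in every tissue and no peak of the BUR map underneath. A BUR too weak for that map could still be present.

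All mice were C57BL/6 and wild-type for Satb1. The 2 thymocyte urea lists are labelled as P13 thymus, made with 4 μl (replicate 1) and 2 μl (replicate 2) of the home-made antibody 1583D. The 2 brain lists carry 5 and 6 weeks as the age in the labels, while the protocol names P13 cortex, and they differ by 10 and 12 cycles in their titles. The 2 skin lists carry P13 in the labels and P5 keratinocytes in the protocol, with 55 and 60 s in their titles. The 4 lists that the choice did not use are standard SATB1 ChIP-seq of thymocytes with antibody ab109122 (replicate 1, 6 weeks in its title and P13 in its age label) and with 1583D (replicate 2, P13), and urea CTCF ChIP-seq of thymus (6 weeks in its title, P13 in its age label) and of skin (P13 in its age label), 1 list each. The BUR map was made with recombinant SATB1 and genomic DNA in a tube. The study's reporting checklist describes replicates in general as cells of separate animals, while no label says so for these lists and the replicates of a tissue carry the same experiment number, so that part of the spread between them may be technical. Peak lists hold no expression values, so the labelled tissues could not be checked against marker genes.

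The urea lists held 45049 and 38882 peaks in thymocytes, 117963 and 109154 in brain and 11210 and 10846 in skin, the standard lists 48175 and 27147, the CTCF lists 20323 in thymocytes and 31509 in skin, and the BUR map 238380. Only peak lists were used, so the depth behind a peak is unknown. Intervals given below are 95% Wilson intervals over sites, and they cover counting error only. For a count of 0, the share it allows is instead 3 counts divided by the number of sites.

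The sequence at the sites was marked by short words rich in A and T. The 300 bases centred on the thymocyte summit are shown for the 3 sites of highest fold enrichment, because they carry these words near their centre. For the same reason they are shown for the site richest in A and T over its whole peak. Sequence is the plus strand of NCBIM37 (mm9), 5′ to 3′, and capitals mark TAATAA and ACTTAAT or their reverse complements.
Cdkal1 intron, chr13:29479224-29479523: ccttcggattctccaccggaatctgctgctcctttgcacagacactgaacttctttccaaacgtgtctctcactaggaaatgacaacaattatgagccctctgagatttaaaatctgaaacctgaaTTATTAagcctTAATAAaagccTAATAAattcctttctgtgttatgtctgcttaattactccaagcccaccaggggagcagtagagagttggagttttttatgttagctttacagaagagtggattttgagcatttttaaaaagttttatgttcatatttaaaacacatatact
Mylk intron, chr16:34773817-34774116: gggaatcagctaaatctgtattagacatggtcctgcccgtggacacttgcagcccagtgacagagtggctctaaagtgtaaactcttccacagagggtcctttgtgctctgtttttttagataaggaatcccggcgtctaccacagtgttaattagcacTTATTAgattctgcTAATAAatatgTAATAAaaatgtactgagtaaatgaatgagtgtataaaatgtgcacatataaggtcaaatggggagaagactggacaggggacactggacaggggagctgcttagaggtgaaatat
CK137956 intron, chr4:127646759-127647058: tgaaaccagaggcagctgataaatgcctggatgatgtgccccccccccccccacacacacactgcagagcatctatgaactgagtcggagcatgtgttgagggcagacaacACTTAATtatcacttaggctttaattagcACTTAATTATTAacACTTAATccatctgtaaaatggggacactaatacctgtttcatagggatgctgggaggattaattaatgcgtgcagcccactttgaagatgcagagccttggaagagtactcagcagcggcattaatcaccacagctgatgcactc
Dach2 intron, richest in A and T, chrX:110837223-110837522: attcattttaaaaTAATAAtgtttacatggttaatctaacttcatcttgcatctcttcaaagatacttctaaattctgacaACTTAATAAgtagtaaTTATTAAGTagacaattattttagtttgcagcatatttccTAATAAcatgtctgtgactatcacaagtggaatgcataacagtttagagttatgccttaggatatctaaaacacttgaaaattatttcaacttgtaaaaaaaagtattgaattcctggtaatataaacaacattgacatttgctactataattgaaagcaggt
In these windows TAATAA stood at 3, 3, 1 and 4 places, and ACTTAAT at 0, 0, 3 and 2. The first window lacks ACTTAAT altogether, and the third holds 3 copies of it, so sites of nearly equal fold enrichment held different words.

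The words were found by counting. Every 6-base word was counted, with its reverse complement, within 50 bases of the thymocyte summit and in the 100 bases that lie 200 to 300 bases from it, so they were chosen after their values were seen and carry no test. TAATAA led: 72.4% of the sites (448 of 619) had it within 50 bases of the summit and 5.98% had it in the flank. TATTAA followed with 62.4% and 6.30%, ATTAAG with 60.3% and 7.19%, CTAATA with 55.4% and 3.63%, and ACTTAA with 50.4% and 5.74%. Of the 10 leading words, a median of 5 were present within 50 bases of the summit, and 96.3% of the sites had at least 1. In a regular grid of 25554 genome windows, TAATAA stood within 50 bases of the centre in 8.07%, and 32.5% had any of the 10 words.

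TAATAA did not set these sites apart from the rest of the thymocyte list. It stood near the summit of 72.7% of all peaks of the list (background), 68.0% of the other 8056 peaks without a BUR and 78.9% of the common peaks with a BUR. The summits that the other 5 lists gave to the same sites lay a median of 17 to 24 bp away, so that most of the window is shared, and there 72.5% had it in the other thymocyte list, 64.9% and 66.9% in the brain lists and 68.7% and 67.5% in the skin lists. The nearest copy lay a median of 10 to 16 bp from the summit, depending on the list.

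ACTTAAT was more frequent at the sites than over the whole list. It joins the third and the fifth of the leading words, ATTAAG as read on the opposite strand and then ACTTAA, which overlap in all but 1 base, and it too was chosen after its values were seen. Within 50 bases of the summit, 45.6% of the sites had it (282 of 619, interval 41.7 to 49.5%), against 11.8% of all peaks of the list (background), 11.7% of the other peaks without a BUR (11.0 to 12.4%) and 21.7% of the common peaks with a BUR (20.7 to 22.7%). In the flanks of the same sites it was at 1.94%, and in the genome grid at 1.19%. Of the 619 sites, 49 had 2 or more copies and 9 had 3 or more. At the summits of the other lists the share was 47.7% in thymocytes, 48.8% and 46.4% in skin, and lower, at 38.4% and 40.9%, in brain.

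**Figure D1:**
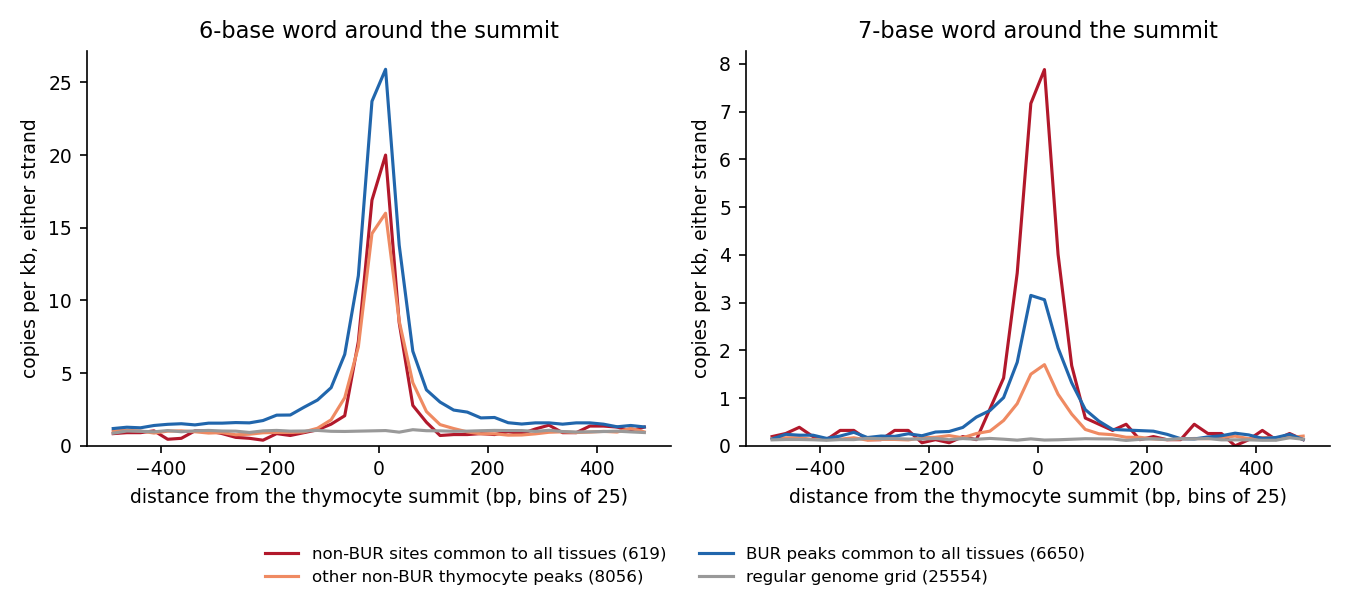
Copies per kb of the 6-base word TAATAA (left) and the 7-base word ACTTAAT (right) by distance from the thymocyte summit, in bins of 25 bp, for the common sites without a BUR (red), other peaks without a BUR (orange), common peaks with a BUR (blue) and a regular genome grid (grey). Both words peak at the summit in the 3 peak sets, the 6-base word highest at common peaks with a BUR and the 7-base word highest at the common sites without one, at 7.88 copies per kb.

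Among peaks of the thymocyte list, the 7-base word was more frequent where skin shared the peak. It was picked at sites that the rule required to have skin peaks. Among brain peaks absent from the thymocyte lists and without a BUR, it was at 12.5% of those shared with skin (2 of 16, 3.50 to 36.0%). It was at 9.82% of those with no skin peak, so there the shares did not separate. Among peaks without a BUR that both thymocyte lists and both brain lists shared and no skin list had, 339 of 3813 carried it (8.89%, 8.03 to 9.84%). Among those shared by thymocytes and skin with no peak in brain, 56 of 91 carried it (61.5%, 51.3 to 70.9%). Peaks without a BUR found in thymocytes only had it at 9.34% (45 of 482). Where a BUR was present the shares were lower, and peaks shared with skin again lay above the others. There 21.7% of the peaks common to all tissues had the word, 7.19% of those in thymocytes and brain without skin and 22.9% of the 48 in thymocytes and skin without brain. TAATAA did not follow this division by skin, with 72.4% at the common sites, 69.1% at thymocyte and brain sites without skin and 61.5% at the 91 sites in thymocytes and skin.

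Differences in peak strength were set beside these shares. Between fold enrichments of 9.17 and 16.3, the middle range of the sites, the 7-base word was at 46.0% of the common sites without a BUR (142 of 309) and at 6.09% of thymocyte and brain peaks without a BUR and without skin (48 of 788). It was at 31.5% of the common peaks with a BUR in that range (617 of 1961, 29.4 to 33.6%), closer to the sites than without the restriction. Of the thymocyte and skin peaks absent from brain, it was at 87.5% without a BUR (21 of 24, 69.0 to 95.7%). With a BUR it was at 21.4% of them (3 of 14, 7.57 to 47.6%), below the common peaks with a BUR. For the common sites and the thymocyte and brain peaks without a BUR, TAATAA was at 70.9% and 76.5%. Over the whole lists, ACTTAAT stood near the summit of 12.0% and 11.8% of thymocyte urea peaks, 8.68% and 9.11% of brain peaks and 22.2% and 22.3% of skin peaks. It was at 4.23% in the BUR map, at 0.427% and 0.502% in the standard SATB1 lists and at 0.569% and 0.577% in the CTCF lists. Skin lists were the shortest, and what a list's length adds to the share was not tested.

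**Figure D2:**
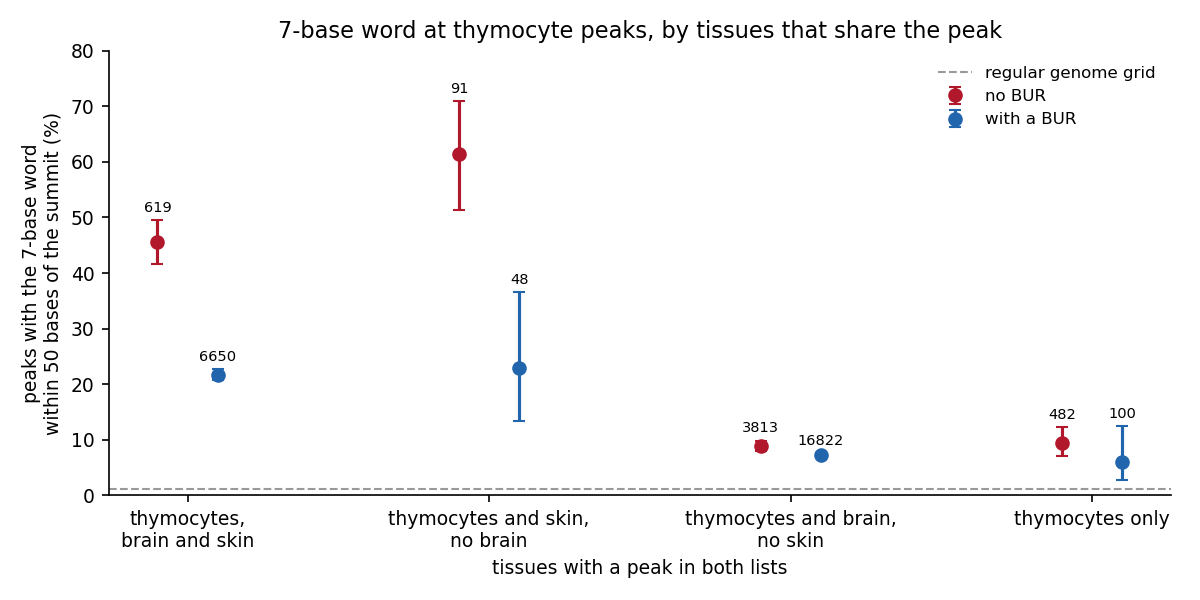
Percentage of thymocyte urea peaks with the 7-base word ACTTAAT within 50 bases of the summit, by the tissues in which both lists share the peak, for peaks without a BUR (red) and with one (blue). Bars are 95% Wilson intervals, numbers are peaks, and the dashed line is the genome grid at 1.19%. Peaks shared with skin lie above those that are not, and peaks without a BUR lie above those with one where skin shares them.

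Within the 619 sites, those with ACTTAAT were weaker in thymocytes and brain and slightly stronger in skin, given here as a description because the lists chose the sites. The median fold enrichment of the 282 sites with the word was 11.2 and 10.9 in the thymocyte lists, 7.11 and 7.51 in brain and 8.28 and 8.05 in skin. At the 337 sites without it, the medians were 13.6 and 14.1, 8.82 and 9.06, and 7.13 and 6.75. TAATAA was near the summit in 73.4% of the former and 71.5% of the latter, so it was about as frequent with ACTTAAT as without.

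The sites were moderately rich in A and T. The median AT content over the whole peak was 60.7% (quartiles 57.0 and 64.0%), compared with 62.8% at the other peaks without a BUR and 67.4% at the common peaks with a BUR. In windows of 300 bases at the summit the medians were 62.0%, 63.0% and 70.0%, and the genome grid had 58.3%. The longest stretch lacking G or lacking C, which is the ATC context, had a median of 30 bases at the sites, 30 at the other peaks without a BUR, 37 at common peaks with a BUR and 27 in the grid. The site with the longest such stretch is shown because it holds a microsatellite beside the words, with 156 bases without G in capitals.
Longest stretch without G, chr5:42435886-42436185: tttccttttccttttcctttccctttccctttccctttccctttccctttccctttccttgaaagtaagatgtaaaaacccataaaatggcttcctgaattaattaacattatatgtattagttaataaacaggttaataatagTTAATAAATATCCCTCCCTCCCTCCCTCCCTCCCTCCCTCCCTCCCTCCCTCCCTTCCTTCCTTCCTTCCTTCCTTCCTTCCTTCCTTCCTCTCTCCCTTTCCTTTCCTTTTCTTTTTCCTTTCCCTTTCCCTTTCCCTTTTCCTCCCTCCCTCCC
This site, chr5:42435800-42436334, lay in no protein-coding gene. Its fold enrichments were 26.5 and 28.5 in thymocytes, 13.0 and 10.1 in brain and 18.1 and 12.4 in skin. AATATATTT, the core unwinding element of a known BUR, was found on either strand of the 300 bases in 7 of the 619 sites (1.13%), against 4.25% of all peaks of the list (background), 4.77% of common peaks with a BUR and 1.23% of the grid. Runs of 10 or more copies of a 2-base unit were in 2.75% of the sites, 1.93% of all peaks of the list and 4.21% of the grid. Runs of 6 or more copies of a 3- or 4-base unit were in 5.49%, 6.12% and 6.24%, and runs of 15 or more A or T in 0.808%, 0.606% and 1.75%. In 547 of 619 windows (88.4%, 85.6 to 90.7%) every stretch of 50 bases occurs once, by exact match, in the mm9 sequence. The share was 91.6% over all peaks of the list and 91.8% of the other peaks without a BUR. A stretch found at 10 or more other places was in 6.30% of the sites (4.64 to 8.50%), 4.19% of the list and 4.63% of the other peaks without a BUR.

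**Figure D3:**
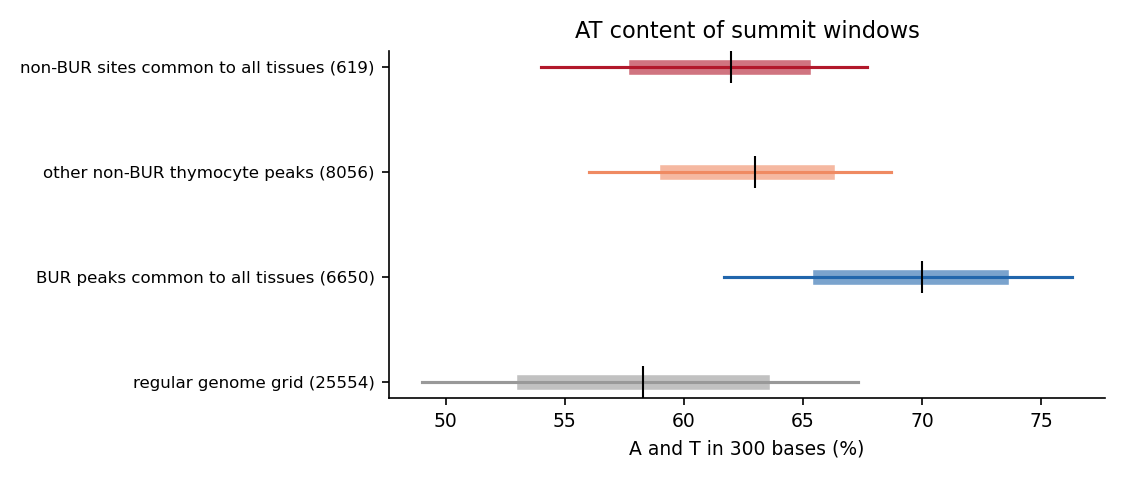
AT content of 300 bases at the summit, as the median (black mark), the quartiles (thick bar) and the 10th to 90th percentile (thin line), for the common sites without a BUR, other peaks without a BUR, common peaks with a BUR and a regular genome grid. The medians are 62.0%, 63.0%, 70.0% and 58.3%.

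Fold enrichment, the height of a peak divided by the background around it in that sample, is given here as a description, since these lists chose the sites. The lists were not scaled to each other, so a site is also given by its percentile, the percentage of peaks of that list with a lower fold enrichment. Percentiles depend on what else a list holds, and the lists differ in length, from 10611 and 10982 peaks in skin to 38765 and 44920 in thymocytes and 109063 and 117870 in brain. In thymocytes the median was 12.6 (replicate 1) and 12.3 (replicate 2), at percentiles 78.1 and 75.0. In brain it was 7.86 and 8.17, at percentiles 56.7 and 57.8, and in skin 7.75 and 7.37, at percentiles 47.1 and 45.2. By the mean percentile of the 2 lists of a tissue, 438 sites (70.8%) ranked highest in thymocytes, 112 in brain and 69 in skin, and 368 (59.5%) ranked lowest in skin. The common peaks with a BUR had higher medians, 18.1 and 18.8 in thymocytes, 17.2 and 16.9 in brain and 10.2 and 9.62 in skin. Their percentiles were also lowest in skin, at 62.1 and 60.5, compared with 91.1 and 90.1 in thymocytes and 92.7 and 92.2 in brain. Thus the gap to BUR peaks was widest in brain.

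**Figure D4:**
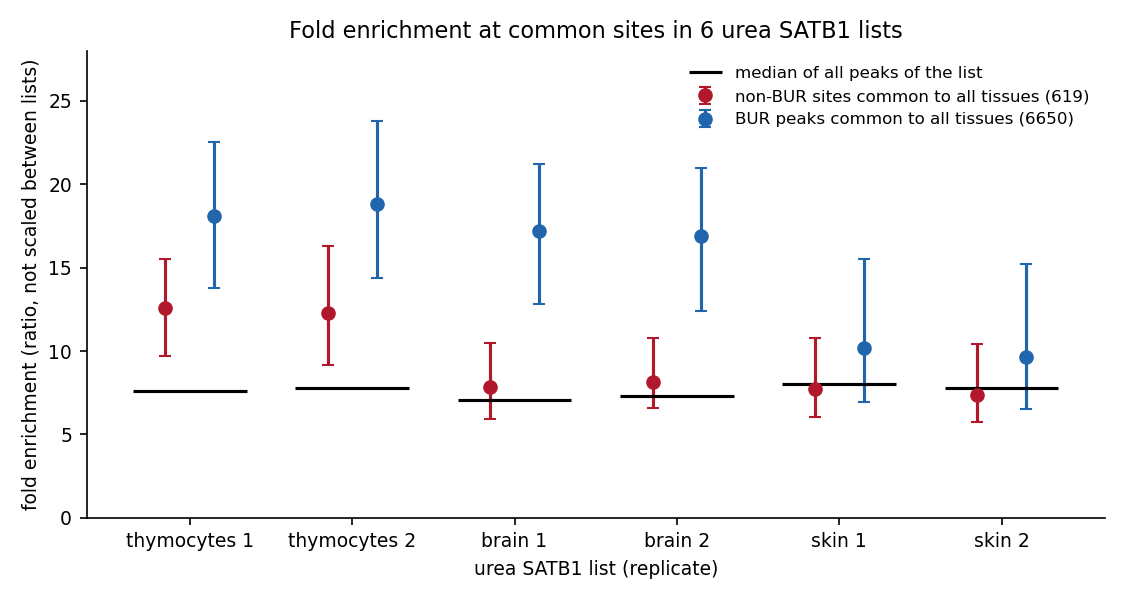
Median fold enrichment (points) and quartiles (bars) of the common sites without a BUR (red) and the common peaks with a BUR (blue) in the 6 urea SATB1 lists, with the median of all peaks of each list (black line). The red medians, from 7.37 to 12.6, lie below the blue ones in every list, and in skin below the median of the list.

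Across the 619 sites, fold enrichment ranked alike between replicates, with Spearman's rho of 0.88 in thymocytes, 0.72 in brain and 0.80 in skin. Between tissues, on the geometric mean of the 2 lists, it was 0.54 for thymocytes and brain, 0.39 for thymocytes and skin and 0.12 for brain and skin. These are descriptions over sites that share each library, and they carry no p. By the mean percentile, 23 sites were in the top 25% of the list in every tissue.

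The strongest sites were in or near genes of varied roles. Values of a site in different tissues are set side by side without scaling. By the geometric mean over the 6 lists, the first lay in an intron of Cdkal1, which encodes a tRNA-modifying enzyme, at chr13:29479099-29479581. Its fold enrichments were 26.3 and 27.5 in thymocytes (26.9 ± 0.867, SD, n = 2 lists), 12.8 and 13.2 in brain (13.0 ± 0.239) and 27.2 and 26.9 in skin (27.0 ± 0.224), so that brain was the low tissue and thymocytes and skin did not separate. The second lay in an intron of Mylk, the gene of myosin light chain kinase, at chr16:34773722-34774196, 133 bp from the nearest BUR. It had 25.0 and 26.6 in thymocytes, 19.3 and 15.9 in brain and 18.5 and 18.2 in skin, with brain and skin overlapping. The third, chr4:127646678-127647212, in an intron of CK137956 and 982 bp from its start, had 21.8 and 23.2, 16.5 and 12.8, and 25.3 and 24.4. Here skin was above thymocytes and brain below both.

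Of the next 7, 6 are described here. A site in an intron of Ddr2, a collagen receptor, at chr1:172025094-172025600, had means of 27.1 in thymocytes, 14.5 in brain and 20.2 in skin. One in an intron of Spag1 at chr15:36152323-36152852 had 23.3, 12.5 and 25.3. Both a site near Galntl1, at chr12:81715882-81716428 (26.1, 21.3 and 12.9), and one near Tmem182, at chr1:40858561-40859059 (25.4, 18.9 and 14.1), were lowest in skin. The last were in introns of Vav2, a guanine nucleotide exchange factor, at chr2:27227873-27228378 (24.0, 17.7 and 14.7), and of Tbrg1, at chr9:37463668-37464244 (24.8, 14.8 and 16.7). Of the 10 strongest sites, brain was the lowest tissue in 7 and skin in 3.

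Most sites were between genes or in introns. Of 619 summits, 253 (40.9%) were in an intron of a protein-coding gene, 6 (0.969%) in an exon and 360 (58.2%) in none, against 35.5%, 3.29% and 61.2% of the grid and 33.8%, 1.07% and 65.1% of all peaks of the list. Within 2 kb of a protein-coding gene start lay 19 sites (3.07%, 1.97 to 4.74%), against 851 of all 38765 peaks of the list (background), 2.74% of the other peaks without a BUR and 3.56% of the grid. The interval includes the share of the whole list. Within 500 kb of a site the median was 6 protein-coding gene starts, compared with 5 for other peaks without a BUR, 3 for common peaks with a BUR and 6 for the grid. By chromosome the sites numbered from 16 on chromosome 19 to 54 on chromosome 1, or 15.7 (chromosome 7) to 31.9 (chromosome 18) for each 100 Mb.

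The 10 sites at gene starts with the highest fold enrichment included those at CK137956 and Tbrg1 given above. The others were at Khdrbs3, which encodes an RNA-binding protein (chr15:68756812-68757210, means of 17.2 in thymocytes, 9.43 in brain and 19.1 in skin), Birc3, an inhibitor of apoptosis (chr9:7874462-7874922, 22.2, 14.4 and 6.86), Fbxl21, an F-box protein of the circadian clock (chr13:56624509-56624915, 11.7, 9.68 and 13.2), Ndc80, a kinetochore component (chr17:71874477-71874869, 15.3, 9.02 and 7.67), Aoah, a lipase that inactivates endotoxin (chr13:20884962-20885424, 14.7, 8.07 and 6.95), and the predicted genes Gm5316, Gm17474 and Gm16484. Tbrg1 was the only one of the 10 with a peak in any of the 4 unused lists, in standard replicate 1.

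Few of the sites, and few peaks of the whole list, were near listed genes of the tissues studied. Lists of T cell, epidermal, cortical neuron and chromosome architecture genes were compared with sites within 50 kb of the gene body. No site was near a T cell gene or a chromosome architecture gene (0 of 619, which allows a share of up to 0.485%), and of all peaks of the list 0.101% and 0.155% were (background). For epidermal genes it was 2 sites (0.323%, background 0.0929%), 26.3 kb from Ovol1 and 47.5 kb from Grhl3, both transcription factors of the epidermis. For cortical neuron genes it was 7 sites at 5 of 23 genes (1.13%, background 0.635%). They lay in introns of Grin2b, an NMDA receptor subunit, of Syt1, the calcium sensor of transmitter release (2 sites), of Dlgap1, a postsynaptic scaffold (2 sites), and of Gabrb1, a GABA receptor subunit, and 3.83 kb from Nrxn3, a presynaptic adhesion protein.

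In none of these 7 sites was the brain mean the highest, and over all 619 sites it was the highest in 69 (11.1%). At the Grin2b site, chr6:136098886-136099356, fold enrichment was 20.0 and 18.9 in thymocytes, 10.5 and 13.7 in brain and 11.2 and 10.0 in skin. At the Nrxn3 site, chr12:89957015-89957485, it was 17.3 and 20.3, 13.2 and 12.6, and 8.60 and 10.0. At the Gabrb1 site, chr5:72523497-72523934, with 6 copies of TAATAA in its window, it was 15.6 and 15.0, 5.85 and 5.91, and 10.5 and 9.01. Thymocytes were highest in all 3. Of the epidermal sites, the one near Grhl3, chr4:135177032-135177426, had 15.6 and 13.3 in thymocytes, 12.7 and 16.8 in brain and 5.03 and 4.30 in skin, so that skin was lowest. The site near Ovol1, chr19:5522513-5522805, had 6.10 and 4.16, 4.98 and 5.97, and 7.13 and 5.53, with the highest mean in skin and all 3 tissues overlapping.

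The sites lay outside BURs by the rule, at gaps near those of the grid. Grid windows may overlap a BUR, which the rule forbids for the sites. The median gap to the nearest BUR was 3659 bp (quartiles 1442 and 9094 bp), close to the 3446 bp of the other peaks without a BUR and the 3980 bp of the grid. A BUR was within 1 kb of 113 sites (18.3%, 15.4 to 21.5%), against 20.4% of the other peaks without a BUR and 21.9% of the grid. Within 100 kb of a site the median number of BURs was 14, compared with 24 around common peaks with a BUR and 15 in the grid, and every site had at least 1. The 5 sites nearest to a BUR, on chromosomes 12, X, 5, 15 and X, were 3, 20, 26, 30 and 28 bp from it. The 5 farthest were in Cbr3 (86.6 kb), Gtf2ird1 (74.2 kb), Accn1 (56.0 kb) and Prdm16 (52.1 kb) and near Cops8 (54.2 kb). All 5 of these had thymocyte fold enrichments from 5.72 to 21.8. The Cbr3 site was also 1 of the 16 sites, described below, with a peak in all 4 lists that the choice did not use.

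At the edge of the rule, 5 common peaks shared 1 to 50 bp with a BUR and stayed outside, and 11 sites within 100 bp of a BUR stayed inside. A peak in every list but one was missing for 8 peaks without a BUR in thymocyte replicate 1, 47 and 67 in the brain lists and 181 and 230 in the skin lists. The number of sites was therefore set mainly by skin. Sites and required peaks overlapped well, the smallest shared length being 120 bp.

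The 4 lists that the choice did not use separated a small subset. Of the 619 sites, 584 (94.3%) had no peak in any of them. A standard SATB1 peak was at 27 sites in replicate 1 (4.36%, background 0.895%) and at 19 in replicate 2 (3.07%, background 0.694%), a mean of 3.72 ± 0.914% (SD, n = 2 lists). A CTCF peak was at 23 sites in thymocytes (3.72%, 2.49 to 5.51%, background 0.586%) and at 28 in skin (4.52%, 3.15 to 6.46%, background 0.867%). The other peaks without a BUR had 1.23%, 0.583%, 0.857% and 1.20% in the same order. The difference was 3.13, 2.49, 2.86 and 3.32 percentage points, higher in 4 of 4 lists, with a mean of 2.95 ± 0.362 (SD, n = 4 lists). The exact two-sided sign-flip permutation test gave p = 0.125, the smallest that 4 lists allow, so the design cannot reach 0.05. Nor are the 4 lists independent, as 22 of the 35 sites with any such peak had both standard SATB1 and CTCF peaks. The SD and p over lists therefore do not measure how well the difference repeats. CTCF, the zinc-finger protein that holds loop anchors, has the core motif CAGGNGGC, which was on either strand of 21 site windows (3.39%, background 1.51%), against 2.57% of other peaks without a BUR and 3.51% of the grid.

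**Figure D5:**
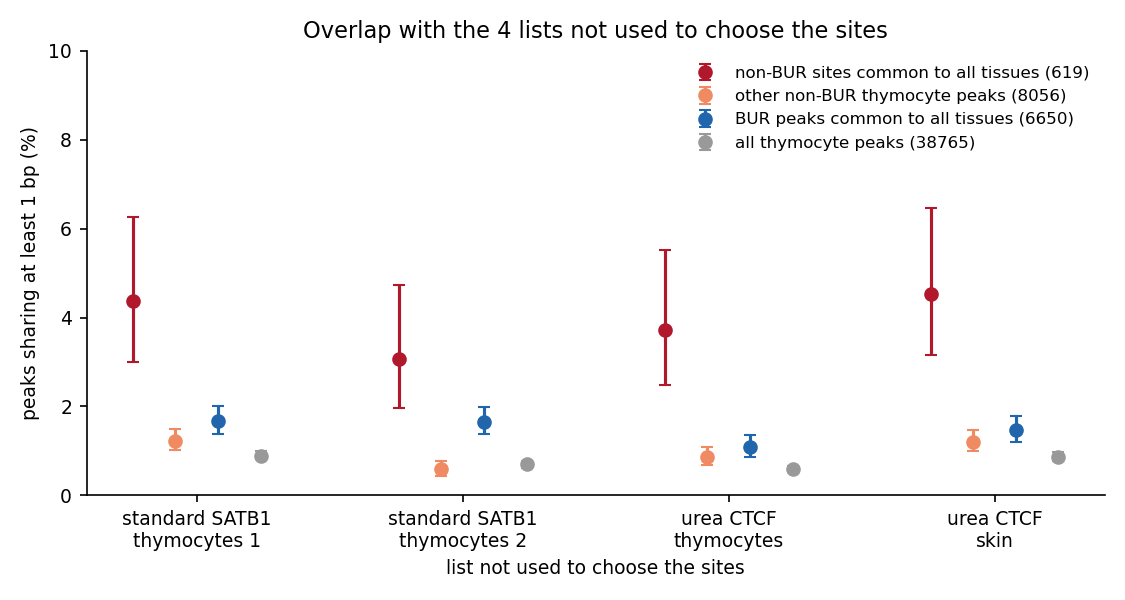
Percentage of peaks sharing at least 1 bp with a peak of each of the 4 lists not used to choose the sites, for the common sites without a BUR (red), other peaks without a BUR (orange), common peaks with a BUR (blue) and all thymocyte peaks (grey), with 95% Wilson intervals. The red points, from 3.07% to 4.52%, lie above the others in each list.

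Much of this overlap came from 16 sites with a peak in all 4 lists. When peaks of that kind were left out of both sets, 16 of the sites and 21 of the others, the difference fell to 0.659 ± 0.379 percentage points (exact sign-flip permutation p = 0.125, n = 4 lists), and the share with a standard peak to 1.16%. When they were left out of the sites alone, it was 0.400 ± 0.380 (p = 0.250, exact sign-flip permutation test, n = 4 lists), higher in 3 of 4 lists. The 16 sites differed from the rest in sequence, which entered the rule only through the absence of a BUR. Their median AT content was 47.2%, against 61.2% at the 584 sites with no peak in the 4 lists. None had TAATAA or ACTTAAT within 50 bases of the summit (0 of 16, which allows a share of up to 18.8%), against 434 and 276 of the 584. They held a median of 17.5 CpG in 300 bases, and the 584 had 2. In the median window of the 16, 91.0% of the 50-base stretches occurred once in the mm9 sequence, against 100% for the 584. Only exact copies were counted, so copies that differ in sequence or are missing from mm9 were not seen. The 19 sites with a peak in 1 to 3 of the lists had TAATAA in 14 (73.7%, against 74.3% of the 584) and ACTTAAT in 6 (31.6%, 15.4 to 54.0%, against 47.3%), with a median AT content of 56.8%.

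Of the 16, the site with the highest fold enrichment and the site poorest in A and T are shown, as a contrast to the windows above. They hold neither word, so that nothing is in capitals. Intergenic means in no protein-coding gene, and genes of other types were not looked up.
Peak in all lists, intergenic, chr11:108872998-108873297: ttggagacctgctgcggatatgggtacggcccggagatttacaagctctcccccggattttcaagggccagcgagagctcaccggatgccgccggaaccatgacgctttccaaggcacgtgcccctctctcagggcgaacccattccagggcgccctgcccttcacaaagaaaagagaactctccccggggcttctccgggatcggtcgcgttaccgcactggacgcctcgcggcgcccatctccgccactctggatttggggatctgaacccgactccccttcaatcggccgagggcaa
Poorest in A and T, intergenic, chr17:39982674-39982973: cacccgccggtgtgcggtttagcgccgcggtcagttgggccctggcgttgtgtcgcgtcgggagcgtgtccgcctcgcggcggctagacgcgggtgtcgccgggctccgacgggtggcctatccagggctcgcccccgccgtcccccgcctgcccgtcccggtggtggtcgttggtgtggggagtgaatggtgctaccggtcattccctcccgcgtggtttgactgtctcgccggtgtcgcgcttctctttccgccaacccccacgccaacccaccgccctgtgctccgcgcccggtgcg
The first, chr11:108872924-108873499, had fold enrichments of 15.3 and 13.9 in thymocytes, 18.2 and 17.4 in brain, 17.0 and 18.7 in skin, 24.2 and 25.2 in the standard SATB1 lists, and 21.5 and 22.0 in the CTCF lists. It was thus high in every list whatever the antibody. The second is in a peak of 3047 bp, chr17:39979984-39983030, where fold enrichment was low, from 2.07 to 3.87, in all 10 lists. Over the 16 sites the median fold enrichment was 7.19 to 7.85 in thymocytes, 6.26 and 7.94 in brain, 9.25 and 9.82 in skin, 15.1 and 18.9 in the standard lists and 15.6 and 14.0 in the CTCF lists. The other sites named by their fold enrichment were in introns of 1700007G11Rik (chr5:98784781-98785023) and Cdk8 (chr5:147072432-147073069) and in no protein-coding gene at chr19:61275427-61275898 and chr6:3151278-3151746. Signal in every list with different antibodies moves with these 16 sites, and its part in their presence in the urea lists was not tested.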

How the data were processed

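Peak lists of 11 samples were analysed: 6 urea SATB1, 2 standard SATB1, 2 urea CTCF and the BUR reference map. Per the labels and the study's methods, the authors mapped reads with Bowtie2 2.3.1 to mm9, keeping unique matches. Peaks were called sample by sample, with MACS2 2.2.7 and a threshold of 0.01 on the q-value. The deposited fold enrichment is a ratio of peak height to nearby background within that sample. The authors' peak caller gave the −log10 of p and q for each peak within its list, and a deposited display score, which was not used. The lists hold no counts, so depth is unknown, precision rests on the number of sites and 2 replicates, and a stronger or deeper list can hold more peaks. Only sequence that can be matched uniquely by reads can appear. Of the sites that the naming rule selects, 1 is not reported here.

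Comparisons were run in Python 3.11.15 (pandas 2.3.3, numpy 2.4.6, scipy 1.17.1), and sequence was read with pysam 0.24.0 from NCBIM37, whose chromosome lengths matched the lists. Gene positions came from the GENCODE vM1 annotation of that build. Where several peaks of a list overlapped a site, the highest fold enrichment was used. Exact copies of 50-base stretches were counted on both strands of that sequence with numba 0.67.0. The grid took 300 bases every 100 kb. Scripts were tested on simulated data.

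The sites, gene lists and tests were chosen with earlier results of these data known. Regions named in the text were the 10 of highest geometric mean fold enrichment, the 5 farthest from and 5 nearest to a BUR, up to 10 within 2 kb of a gene start, 5 with a peak in all 4 unused lists, and those within 50 kb of a listed gene. The site with the longest stretch without G or C and those at both extremes of whole-peak AT content had their sequence shown, none on chromosome 18. The words TAATAA and ACTTAAT, the site at the lowest AT content as a value, and the alternatives on peaks in all 4 lists and on repeated stretches were taken up after the values were seen.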

Additional observations from a re-analysis of the deposited data

How the results depend on the processing

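The number of sites was 613 when the summit had to be covered, 599 when 50% of the thymocyte peak had to be, 611 at a −log10 q of at least 5, 506 with no BUR within 1 kb and 618 from the other thymocyte list. Without 1 of the 6 urea lists it was 627 to 849, highest without skin replicate 2. Of 84 shares and median AT contents under alternatives, 74 stayed within the error of the reported value and 10 lay outside it. Without the 16 sites with a peak in all 4 unused lists, the share of sites with a standard SATB1 peak was 1.16%, with a thymocyte CTCF peak 1.16% and with a skin CTCF peak 1.99%, since those sites hold peaks of all 4 lists, and the same values hold when such peaks leave the comparison set too. With 10 kb in place of 2 kb, 13.6% of the sites were near a gene start, as a wider distance must raise the share. With 300 bases in place of the peak, median AT content was 62.0%. The mean difference to other peaks without a BUR ranged from 0.400 to 3.35 percentage points over 16 alternatives (exact permutation p from 0.125 to 0.250, 4 lists), in 11 within 1 SD of the reported value and in 5 not. It was 0.400 when only the sites lost the peaks in all 4 lists, and standard replicate 2 then turned its direction, with 0.498% of the sites and 0.583% of the others. Against thymocyte and brain peaks without skin it was 3.29. Leaving out windows in which most stretches occur at 10 or more other places removed no site, so its values equal the reported ones. They are counted above among those that stayed within the error. No paired analysis was possible because the only test compares sets of peaks within each of 4 lists and fits no samples as replicates. The lists carry no depth, so a site missing from the short skin lists cannot be called unbound.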

Other observations

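The word ACTTAAT was also counted at peaks that are not in the thymocyte lists. Among peaks of brain replicate 1 shared with brain replicate 2 and absent from both thymocyte lists, 16 without a BUR had a peak in both skin lists, and 2 of these (12.5%, 95% Wilson interval 3.50 to 36.0%) had the word within 50 bases of the brain summit, compared with 1103 of 11228 (9.82%, 9.29 to 10.4%) with no skin peak. With a BUR, it was 2 of 19 (10.5%, 2.94 to 31.4%) and 2607 of 37140 (7.02%, 6.76 to 7.28%). Both intervals of peaks shared with skin include the share without a skin peak. The 619 sites had the word at 38.4% around the summits of the same brain list, above the interval without a BUR, which rests on 16 peaks.

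Just 4 of the 619 sites lay within 10 kb of another of them.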
